A study of Arabidopsis thaliana with 8 samples.

Results

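Light-harvesting and photosystem subunit genes were examined for binding peaks of the GATA transcription factors GNC and CGA1 in Arabidopsis thaliana. The genes are the nuclear LHCA, LHCB, PSA and PSB genes, chosen by their TAIR locus, with earlier results of these data known. There were 44 of them among 27444 nuclear protein-coding genes, with 6 LHCA, 15 LHCB, 12 PSA and 11 PSB genes. For each gene, peaks were searched from 2 kb upstream of the transcription start site (TSS) to 1 kb downstream of the gene end. A gene was counted for a factor when both replicate lists of the line placed at least 1 bp of a peak in this window.

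The plants were of the ecotype Col-0, were grown in long days and were 3 weeks old. Whole rosette leaves were taken from the myc-GNC and the myc-CGA1 line, which both overexpress the factor with a c-myc epitope tag. Each line had 2 biological replicates with an IP library, made with an anti-myc antibody, and an INPUT library of the same sonicated chromatin, 8 libraries in all. Both lines carry a transgene, so the peaks show where a tagged and overexpressed protein was enriched over INPUT. The promoter of the transgenes is not given in the sources used here, and an anti-myc IP from untagged plants was not analysed here.

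In the thylakoid membrane, LHCA proteins form the antenna of photosystem I and LHCB proteins form the antenna of photosystem II. PSA and PSB proteins are subunits of the photosystems themselves, of which the chloroplast genome encodes the reaction centre cores and the nucleus encodes most peripheral subunits. GNC and CGA1 are B-class GATA factors that are known for promoting greening and chlorophyll synthesis in leaves, and many promoters of light-regulated genes hold GATA words such as the I-box.

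The GNC lists held 5745 and 5722 peaks and the CGA1 lists held 2456 and 2399 peaks. The score of a peak is the negative log10 of the MACS p-value of IP against INPUT, multiplied by 10. Its median was 65.3 and 65.6 in the GNC lists and 62.9 and 62.5 in the CGA1 lists. All regions at the 44 genes that were found in both lists of a line had the same first and last base in both, as did all 4734 such GNC regions and 891 of 1918 such CGA1 regions of the genome. The lists may therefore not be independent calls, each line was counted as 1 sample, and no test between replicates or lines was made. Reads are not counted in the lists and library depth was not used here. The 95% Wilson intervals given for shares cover counting error over genes only.

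GNC peaks were present at 11 of the 44 genes (25.0%, interval 14.6% to 39.4%), against 22.9% of all protein-coding genes. CGA1 peaks were present at 3 of 44 (6.82%, interval 2.35% to 18.2%), against 9.94%. Both shares lay near those of all genes, and both intervals included them. PSAK was the only gene of the 44 with peaks of both factors (2.27%, interval 0.402% to 11.8%, against 2.57% of all genes). In all, 13 genes had a peak of at least 1 factor in both lists, 5 had a peak in 1 list only, and 26 had none in any list. The shares of all genes were not computed for these counts, which are therefore no result about the 44 genes as a set. A GNC peak in either list was present at 31.8% of the 44 genes, against 30.9% of all genes. For CGA1 it was 11.4%, against 15.0%, so these shares also lay near those of all genes.

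**Figure D1:**
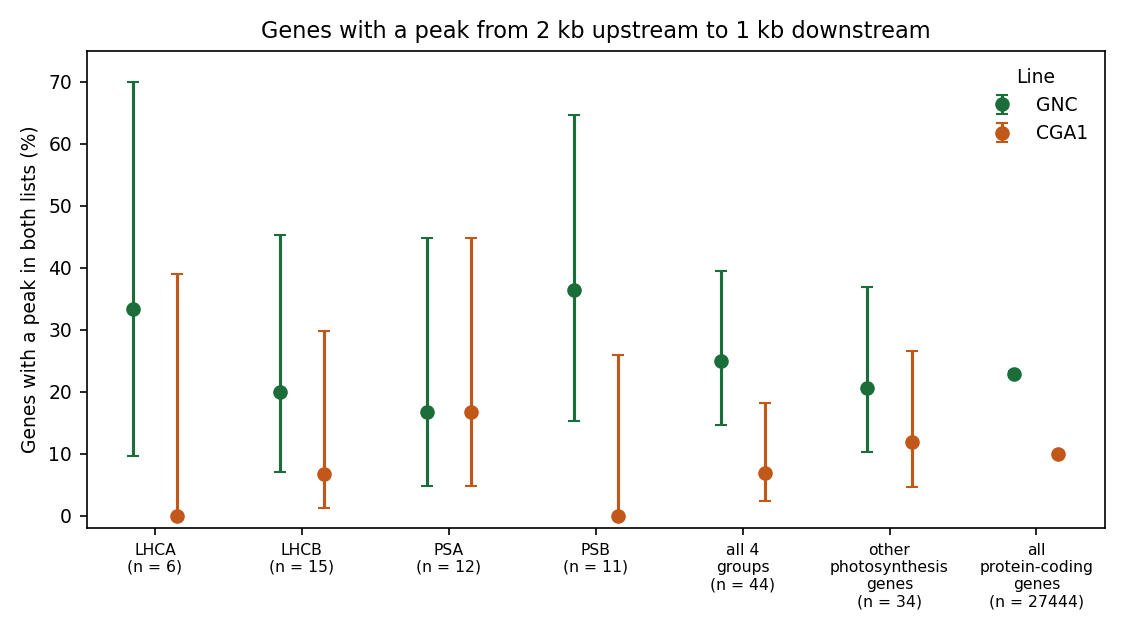
Share of genes, in percent, with a peak of both lists of the line from 2 kb upstream to 1 kb downstream, for each group of subunits, for all 44 genes together, for 34 other photosynthesis genes and for all 27444 protein-coding genes. Points are shares and bars are 95% Wilson intervals, which in all 4 groups of subunits include the shares of all genes, 22.9% for GNC and 9.94% for CGA1.

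By complex, GNC peaks were found at 2 of 6 LHCA genes (33.3%, interval 9.68% to 70.0%) and 3 of 15 LHCB genes (20.0%, interval 7.05% to 45.2%). They were found at 2 of 12 PSA genes (16.7%, interval 4.7% to 44.8%) and 4 of 11 PSB genes (36.4%, interval 15.2% to 64.6%). CGA1 peaks were found at 1 of 15 LHCB genes, LHCB2.3, and at 2 of 12 PSA genes, PSAH1 and PSAK. No LHCA or PSB gene had a CGA1 peak in both lists, where 0 of 6 allows a share of up to 39.0% and 0 of 11 up to 25.9% by the upper Wilson limit. With so few genes per complex, an order of the 4 groups was not detectable.

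The position of the peaks within the window was described next. In the 2 kb upstream of the TSS, 4 genes had a GNC peak (9.09%, interval 3.59% to 21.2%), against 10.6% of all genes. Within the transcribed region, 9 genes had a GNC peak (20.5%, interval 11.2% to 34.5%), against 11.6% of all genes, a share that the interval included. The median gene length was 1390 bp for the 44 genes and 2080 bp for all genes, and a role of length was not tested. In the 1 kb downstream, 3 genes had a GNC peak (6.82%), against 6.31%. For CGA1, 2 genes had a peak upstream (4.55% against 4.62%), 1 within the gene (2.27% against 4.85%) and 1 downstream (2.27% against 2.57%). A peak can lie in more than 1 of these parts. Counted by the peak centre from 1 kb upstream to 100 bp downstream of the TSS, 4 genes had GNC, which were LHCB5, PSAE1, PSAK and PSBS. This was 9.09% (interval 3.59% to 21.2%), against 5.33% of all genes. CGA1 was found at LHCB2.3 and PSAH1, or 4.55% (interval 1.26% to 15.1%), against 2.25%. Both intervals included the share of all genes. No gene had peaks of both factors in the 2 kb upstream, against 0.547% of all genes, or by centre in this promoter window, against 0.135%.

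**Figure D2:**
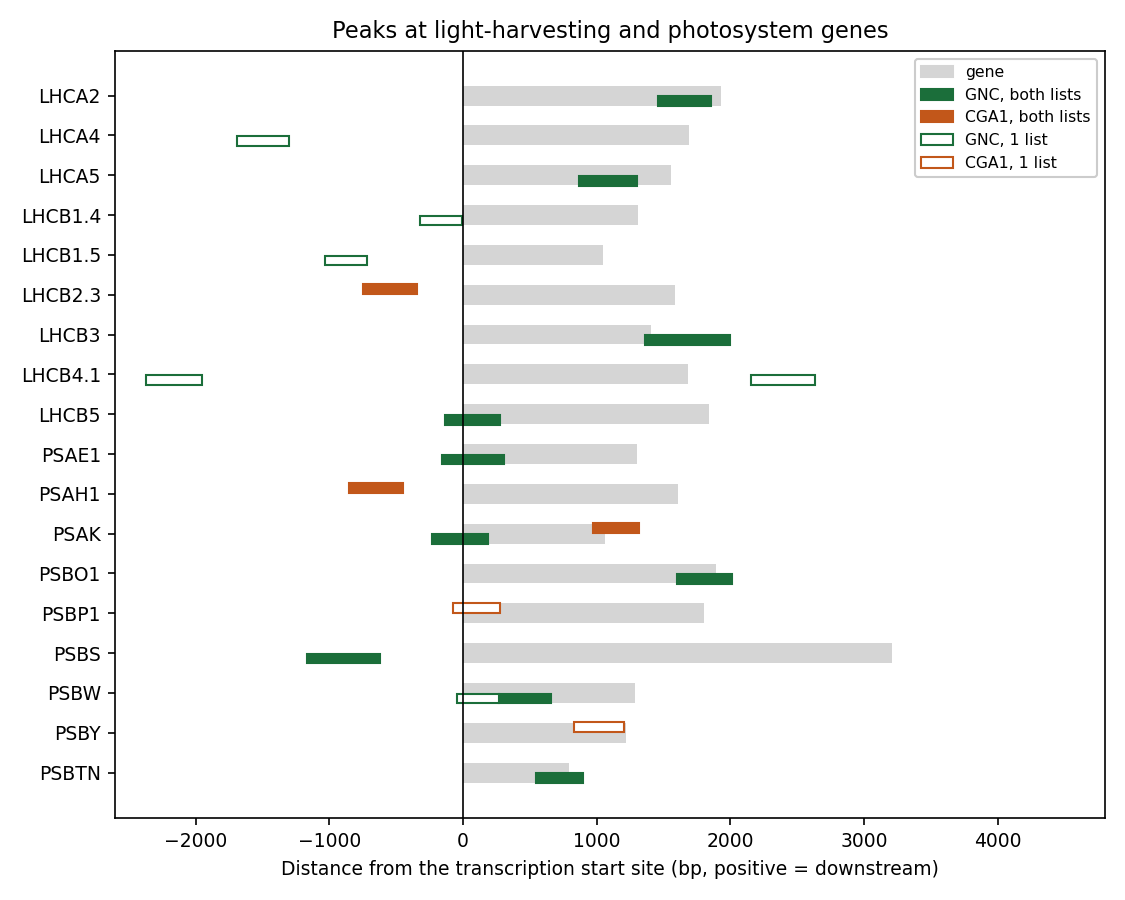
Position of each peak at the 18 genes with a peak in at least 1 list, in bp from the TSS of the gene, with the gene as a grey bar. Filled boxes are peaks of both lists of a line and open boxes are peaks of 1 list. GNC peaks cover the TSS of LHCB5, PSAE1 and PSAK in both lists, and those of LHCA2, PSBO1 and PSBTN lie at the 3′ end of the gene.

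Among the antenna genes of photosystem I, LHCA2 and LHCA5 had GNC peaks. LHCA2 (AT3G61470) encodes one of the main antenna proteins, and its peak (chr3:22746975-22747369) had a score of 55.93 in both lists, with the centre 1658 bp downstream of the TSS in the 3′ UTR. LHCA5 (AT1G45474) encodes a low-abundance protein that takes part in linking photosystem I to the NDH complex, and its peak (chr1:17180116-17180550) scored 61.47 in list 1 and 77.26 in list 2, centred 1083 bp downstream of the TSS in a coding exon. Neither peak reached the promoter. LHCA4 (AT3G47470), another main antenna gene, had a peak in GNC list 1 only (chr3:17496334-17496723, score 56.52), centred 1496 bp upstream of its TSS and inside the neighbouring gene AT3G47480, whose TSS is nearer. LHCA1, LHCA3 and LHCA6 had no peak of either factor.

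In the LHCB group, LHCB5 (AT4G10340), which encodes the monomeric antenna protein CP26, had a GNC peak over its TSS. Its score was 84.54 in list 1 and 75.76 in list 2, higher than 78.3% and 68.0% of the peaks of these lists. The peak (chr4:6407872-6408286) was centred 72 bp downstream of the TSS. Only 47 bases lie between the TSS and the end of the upstream gene AT4G10330. These bases (chr4:6407960-6408006, plus strand) are shown because all 3 GATA words of the region lie in them. Here and in the sequences that follow, the DNA is written 5′ to 3′ on the strand of the gene, and capitals mark GATA and GATC words on either strand, so that TATC in capitals is GATA on the other strand.
LHCB5 upstream: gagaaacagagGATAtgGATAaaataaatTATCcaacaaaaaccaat

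LHCB3 (AT5G54270) encodes a protein of the LHCII trimers, and its GNC region scored 83.55 in list 1 and 97.35 in list 2. The mean was 90.45, and the scores were higher than 77.1% and 87.2% of the peaks of the lists. The region (chr5:22039526-22040159) overlapped the 3′ end of LHCB3, but its centre, 1677 bp downstream of the TSS, lay in the neighbouring gene AT5G54280 (ATM2). It was also the widest region of the 44 genes, with 634 bp, and the 300 bases around its centre held no GATA and no GATC word. LHCB4.1 (AT5G01530), which encodes the antenna protein CP29, was counted for GNC only because each list had a different peak in its window. List 1 had a peak scoring 53.32 (chr5:206497-206914), centred 2161 bp upstream of the TSS inside AT5G01520 (AIRP2). List 2 had one scoring 68.22 (chr5:211018-211495), 469 bp past the gene end inside AT5G01540 (LECRKA4.1). Neither was shared between the lists or nearest to the TSS of LHCB4.1, and when the peaks of both lists had to overlap, 10 of 44 genes had a GNC peak, against 22.7% of all genes, while CGA1 stayed at 3, against 9.87%.

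LHCB1.4 (AT2G34430) and LHCB1.5 (AT2G34420), which encode LHCII proteins and are transcribed away from each other, shared a peak of GNC list 1 (chr2:14524285-14524602, score 58.09). Its centre was 164 bp upstream of the TSS of LHCB1.4 and 876 bp upstream of that of LHCB1.5, and list 2 had no peak in either window. The tandem genes LHCB1.1, LHCB1.2 and LHCB1.3 and the genes LHCB2.1 and LHCB2.2 had no peak of either factor.

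LHCB2.3 (AT3G27690) was the LHCB gene with a CGA1 peak in both lists. The score was 57.87 in list 1 and 53.12 in list 2, so both values were below the medians of their lists. The peak (chr3:10255161-10255562) was centred 545 bp upstream of the TSS of LHCB2.3 but 72 bp upstream of that of the neighbouring gene AT3G27680, which lies on the other strand. The stretch of the peak outside both genes (chr3:10255291-10255562, plus strand) is shown because its 9 GATA words were the most of any region at the 44 genes. The median over all CGA1 regions was 3 in 300 bases, and a count picked as the largest lies above a median by choice. Several of these words overlap each other, as in GATATC, which reads as GATA on both strands.
LHCB2.3 upstream: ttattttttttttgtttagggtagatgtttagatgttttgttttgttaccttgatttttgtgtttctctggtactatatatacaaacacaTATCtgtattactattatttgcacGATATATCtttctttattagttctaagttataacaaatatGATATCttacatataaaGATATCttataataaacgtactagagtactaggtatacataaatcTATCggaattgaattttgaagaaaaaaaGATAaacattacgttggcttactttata

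In photosystem I, peaks were found at PSAE1, PSAK and PSAH1. PSAE1 (AT4G28750) encodes a subunit of the stromal ridge, where ferredoxin docks. Its GNC peak (chr4:14203754-14204221) scored 76.21 in list 1 and 77.97 in list 2 and was centred 73 bp downstream of the TSS. The peak lies wholly within the overlapping gene AT4G28755 on the opposite strand, so a peak at the TSS of PSAE1 cannot be told apart from one in that gene. The 300 bases around its centre held 1 G-box, the word CACGTG.

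PSAH1 (AT3G16140) encodes a subunit at the site where LHCII docks on photosystem I. Its CGA1 peak had a score of 77.01 in list 1 and 64.42 in list 2, the highest CGA1 scores at the 44 genes and higher than 75.8% and 54.3% of the peaks of these lists. It was centred 650 bp upstream of the TSS (chr3:5470041-5470447), no other TSS was nearer, and the nearest GNC peak was 19075 bp from the gene. The 300 bases shown (chr3:5470094-5470393, minus strand) are a counterpart to the LHCB2.3 stretch: they are about as rich in AT, with 26.7% GC against 23.9%, but hold 1 GATA word. Both stretches were picked, and a link of GATA words to base composition was not tested.
PSAH1 upstream: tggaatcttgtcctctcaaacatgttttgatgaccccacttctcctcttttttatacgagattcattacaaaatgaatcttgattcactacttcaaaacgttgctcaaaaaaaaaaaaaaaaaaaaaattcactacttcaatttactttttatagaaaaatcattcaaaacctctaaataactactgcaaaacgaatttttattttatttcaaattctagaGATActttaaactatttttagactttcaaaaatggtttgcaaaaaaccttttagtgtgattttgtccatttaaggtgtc

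PSAK (AT1G30380), which encodes a membrane subunit at the edge of photosystem I next to its antenna, had peaks of both factors. The GNC peak (chr1:10721953-10722367) scored 84.35 in list 1 and 83.27 in list 2, covered the TSS and was centred 23 bp upstream of it. Its CGA1 peak (chr1:10723158-10723497) scored 57.62 in both lists, overlapped the end of the gene and was centred 1144 bp downstream of the TSS. The peaks lay at opposite ends of the gene, with 790 bp between them and 1167 bp between their centres. An overlap of GNC and CGA1 peaks was possible at PSAK alone, because no other gene of the 44 had both, against 2.57% of all genes. The share of all genes with overlapping peaks was not computed, so its absence here is no result about the 44 genes. The parts of the PSAK peaks outside the gene are shown to compare both ends (chr1:10721953-10722182 for GNC and chr1:10723248-10723497 for CGA1, plus strand). The GNC stretch holds 1 GATA word, which is part of an I-box (GATAAG) on the other strand, and the CGA1 stretch holds 2 GATA words near its far end.
PSAK upstream, GNC: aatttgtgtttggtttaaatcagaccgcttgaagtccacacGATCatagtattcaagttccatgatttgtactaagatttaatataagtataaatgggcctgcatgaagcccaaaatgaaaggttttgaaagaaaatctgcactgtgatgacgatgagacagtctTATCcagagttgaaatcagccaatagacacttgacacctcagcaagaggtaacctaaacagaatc
PSAK downstream, CGA1: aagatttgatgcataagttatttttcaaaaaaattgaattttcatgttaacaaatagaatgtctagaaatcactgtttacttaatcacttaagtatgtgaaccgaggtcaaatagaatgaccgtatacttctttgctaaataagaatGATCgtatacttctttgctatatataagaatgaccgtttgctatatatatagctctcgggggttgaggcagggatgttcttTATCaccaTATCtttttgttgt

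In photosystem II, 4 genes had a GNC peak and none had a CGA1 peak in both lists. PSBS (AT1G44575) encodes the sensor of lumen pH for the dissipation of excess light, and its GNC peak (chr1:16869058-16869603) scored 57.77 in list 1 and 74.86 in list 2. It was centred 891 bp upstream of the TSS, the only one of the 4 in the promoter. The 300 bases around its centre (chr1:16869181-16869480, plus strand) are shown as the only GNC region of both lists at the 44 genes that lay wholly upstream of the gene, and they hold 4 GATA words.
PSBS upstream: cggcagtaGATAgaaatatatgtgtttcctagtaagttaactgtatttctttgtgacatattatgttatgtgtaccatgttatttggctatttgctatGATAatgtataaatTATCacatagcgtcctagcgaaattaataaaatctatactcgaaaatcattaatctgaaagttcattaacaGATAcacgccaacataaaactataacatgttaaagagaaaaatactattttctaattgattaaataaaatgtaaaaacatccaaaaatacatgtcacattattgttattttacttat

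PSBO1 (AT5G66570) encodes an extrinsic protein of the oxygen-evolving complex, and its GNC peak (chr5:26570177-26570584) scored 54.62 in list 1 and 56.93 in list 2, centred in the 3′ UTR 1808 bp downstream of the TSS. PSBTN (AT3G21055) encodes a small lumenal subunit, and its GNC peak (chr3:7376331-7376680) scored 54.55 in list 1 and 64.21 in list 2, centred in the 3′ UTR 720 bp downstream of the TSS. These peaks, like that of LHCA2, lay at the 3′ end and had scores below the median of their list. PSBW (AT2G30570) encodes a small membrane subunit that stabilizes photosystem II with its antenna. Its shared GNC peak (chr2:13019650-13020039) scored 51.31 in list 1 and 56.52 in list 2, centred 466 bp downstream of the TSS in an intron. List 2 held a second peak directly beside it (chr2:13020041-13020353, score 51.18) that covered the TSS and was not in list 1. The 300 bases around the shared peak held 4 GATC words, the most of any region at the 44 genes.

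For CGA1, peaks at photosystem II genes were each in 1 list. PSBP1 (AT1G06680), another gene of the oxygen-evolving complex, had a peak over its TSS in list 2 only (chr1:2047563-2047910, score 55.13). PSBY (AT1G67740), which encodes a small membrane subunit, had a peak in its 3′ UTR in list 1 only (chr1:25394046-25394416, score 54.31). Both scores were below the median of their list.

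**Figure D3:**
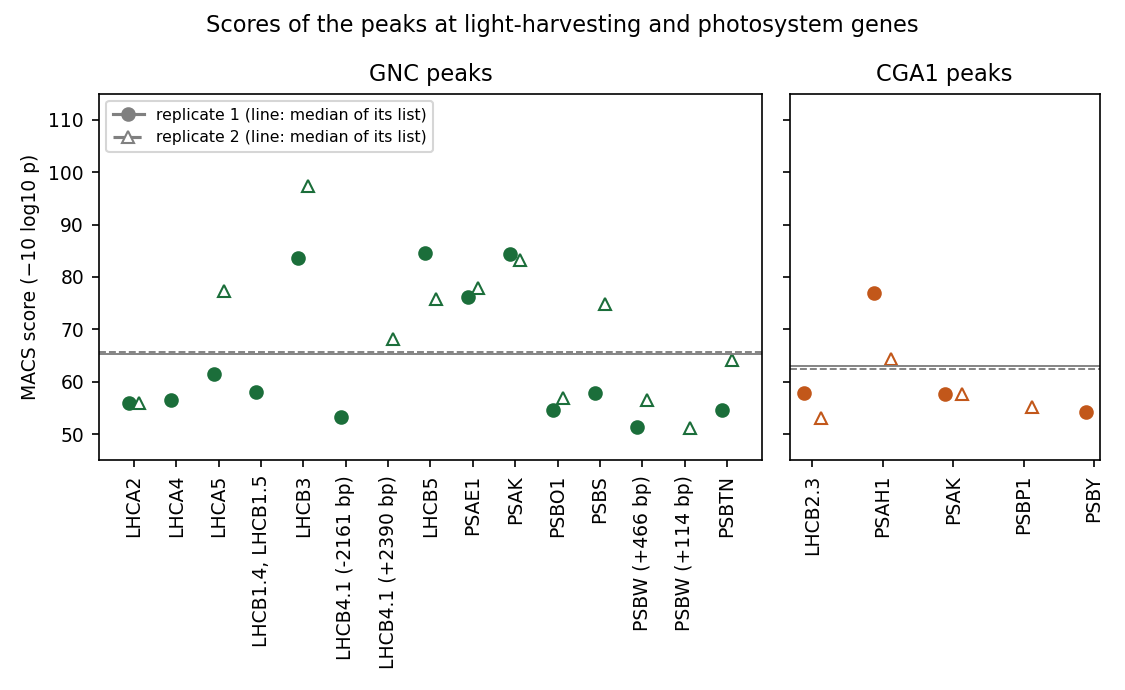
Score of each peak at the genes, the negative log10 of the MACS p-value multiplied by 10, for replicate 1 (filled circles) and replicate 2 (open triangles) of GNC (left) and CGA1 (right). Horizontal lines are the medians of the lists (solid, replicate 1, and dashed, replicate 2). LHCB3, LHCB5, PSAE1 and PSAK were above the GNC medians in both lists, and PSAH1 was the only gene above the CGA1 medians in both.

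The scores at these genes were moderate. Over the 10 GNC regions found in both lists, the mean score of the lists ran from 53.92 at PSBW to 90.45 at LHCB3 with a median of 67.84, against a median of 69.2 over all 4734 such regions. None of the 10 reached 100, while 12.3% of all GNC regions did, and so few regions cannot show a difference from that share. For CGA1, the mean scores were 55.5 at LHCB2.3, 57.62 at PSAK and 70.72 at PSAH1, against a median of 66.09 over all 1918 regions, of which 9.8% reached 100. Between the lists, the GNC regions differed by a median of 7.0 and by at most 17.09 (PSBS), and the CGA1 regions by a median of 4.75 and by at most 12.59 (PSAH1), which is a difference between lists and not a measured spread between biological replicates. Regions whose mean scores were closer than these differences, such as LHCB5 (80.15) and PSAK (83.81) for GNC, cannot be ordered. All 10 GNC regions were nearer to the TSS of their own gene than to that of any other, as were 2 of the 3 CGA1 regions. When only such peaks were used, 10 of 44 genes had a GNC peak (22.7%, interval 12.8% to 37.0%), against 13.8% of all genes, and 2 had a CGA1 peak (4.55%, interval 1.26% to 15.1%), against 5.86%.

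Genes that encode the same subunit were compared next, in pairs picked after their values were seen. PSAE1 had a GNC peak over its TSS, while the nearest GNC peak was 3195 bp from PSAE2. PSAH1 had a CGA1 peak, while the nearest one was 15613 bp from PSAH2. PSBO1 had a GNC peak, while the nearest one was 11850 bp from PSBO2. In each of these pairs, a peak was found at 1 gene only, which is no result about such pairs because of how they were picked. Of all genes, 22.9% had a GNC peak and 9.94% a CGA1 peak. The PSAE1 peak also lies within AT4G28755. Both genes of the PSAD pair, which encode the ferredoxin-docking subunit, and both of the PSBQ pair, which encode an oxygen-evolving complex protein, had no peak, with the nearest GNC peak 6035 bp from PSAD1, 4688 bp from PSAD2, 4345 bp from PSBQ1 and 1146 bp from PSBQ2. For CP29, LHCB4.2 and LHCB4.3 were 6354 and 29869 bp from the nearest GNC peak. Over all 30 genes without a GNC peak in either list, the distance from the gene to the nearest one was 1075 bp at least, 6658.5 bp in the median and 54221 bp at most. Over the 39 without a CGA1 peak it was 1660, 11308 and 218347 bp. Both maxima belonged to PSBX, a gene of a small photosystem II subunit on chromosome 2.

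Words of known plant motifs were counted in the 300 bases around the centre of each region, on both strands, with overlaps allowed. GATA was present in 9 of 10 GNC regions and 2 of 3 CGA1 regions at the 44 genes, against 91.8% and 92.5% of all GNC and CGA1 regions and 89.3% of 300-base windows centred on the TSS of all protein-coding genes. The regions without it were those of LHCB3 for GNC and PSAK for CGA1, where the GATA words of the stretch shown lie outside the 300 bases. GATC was present in 5 of 10 GNC regions and 1 of 3 CGA1 regions, against 62.3% and 61.8% of all regions and 57.1% of TSS windows. The longer I-box, GATAAG, was found in 2 GNC regions, those of PSAK and PSBW, against 15.4% of all GNC regions and 15.2% of TSS windows, and in no CGA1 region, against 16.9%. A G-box, CACGTG, which is the binding word of many bZIP and bHLH light-signalling factors, was found at PSAE1 only, against 4.31% of all GNC regions and 7.56% of TSS windows. Every G-box is also an E-box, CANNTG, which was in 6 GNC regions and no CGA1 region, against 67.9% and 66.4%. CCAAT was in 4 GNC regions and no CGA1 region, against 49.9% and 49.3%, and the 3 matches on LHCB5 were the most of any gene. The word AAAAATCT, a binding word of the clock factor CCA1 first described at an LHCB1 promoter, and the PCF word GGNCCC were in no region, against 5.62% and 7.75% of all GNC regions and 5.42% and 7.19% of all CGA1 regions. GAGAGA was in 2 GNC regions and no CGA1 region, against 26.3% and 28.1%, and TATAAA was in 4 GNC and 2 CGA1 regions, against 36.6% and 37.2%. In 500 bases, AAAAATCT was in 1 CGA1 region, against 8.39% of all CGA1 regions. GATA is short enough to be in most windows of this length, and a match describes letters and not a bound site. The median GC content of the GNC regions was 36.1% against 35.7% for all GNC regions, and that of the 3 CGA1 regions was 26.7% against 35.0%.

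Because reads with a further match in the genome had been removed, the share of 50-base words that occur once in the genome was computed for each gene. Only exact copies of a word were counted, while the alignment of the study allowed a mismatch. Reads with a near copy elsewhere may therefore also have been removed, which these shares do not show. In the transcribed region the share was 100% for 35 genes. The other 9 were the 5 LHCB1 genes, with 79.5% for LHCB1.1, 89.4% for LHCB1.2, 83.0% for LHCB1.3, 86.3% for LHCB1.4 and 82.7% for LHCB1.5, then LHCB2.1 with 78.6%, LHCB2.2 with 74.1%, LHCA2 with 92.1% and PSBS with 93.5%. Of these 9 genes, LHCA2 and PSBS had a GNC peak in both lists. Over the whole window, 9 genes were under 95% and 24 were at 100%, and 10.6% of all protein-coding genes were under 95%. Here LHCA3 was lowest, with 80.1%, followed by PSAD1 with 86.4%, while the windows of the LHCB1 and LHCB2 genes were at 91.4% or more. With only the 35 genes at 95% or more, 10 had a GNC peak (28.6%, interval 16.3% to 45.1%), against 23.9% of all such genes, and 3 had a CGA1 peak (8.57%, interval 2.96% to 22.4%), against 10.5%. Whether the removal of these reads changed the peaks at these genes was not tested.

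**Figure D4:**
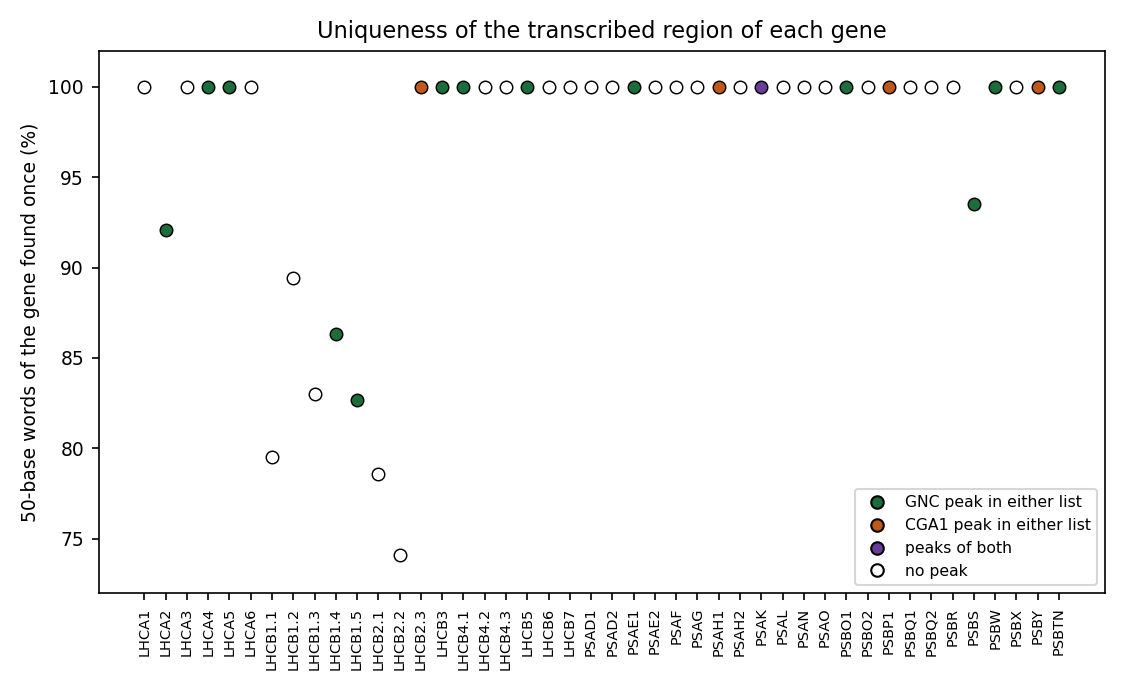
Share of 50-base words of the transcribed region that occur once in the genome, in percent, for each of the 44 genes in the order LHCA, LHCB, PSA and PSB. Colours show a peak in either list of GNC, of CGA1 or of both, and open circles show no peak. The values run from 74.1% at LHCB2.2 to 100% at 35 genes, and the axis does not start at 0.

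For comparison, 34 other nuclear genes of photosynthesis, also listed with earlier results known, were searched in the same way. GNC peaks were present at 7 (20.6%, interval 10.3% to 36.8%) and CGA1 peaks at 4 (11.8%, interval 4.67% to 26.6%), again near the 22.9% and 9.94% of all genes. Those for GNC were FNR1 and FNR2, which encode ferredoxin-NADP reductases, ATPG of the ATP synthase, RCA, GAPB and HCEF1 of carbon fixation, and ELIP1, an early light-induced protein of the LHC family. The FNR2 peak of both lists was centred 1865 bp upstream of the FNR2 TSS, inside TUB5 and 71 bp from the TUB5 TSS. List 2 held a further peak over the TSS of FNR2 that was not in list 1. The RCA peak began 246 bp past the gene end and was centred inside AT2G39725. ATPG had a peak over its TSS, with scores of 78.5 and 82.23. Those for CGA1 were SBPASE, a Calvin cycle enzyme, with scores of 81.01 and 76.13 at 539 bp upstream of the TSS, the neighbours RBCS1B and RBCS2B, which shared 1 peak centred in the 3′ UTR of RBCS1B, and ELIP1. ELIP1, the relative of the antenna genes, had peaks of both factors upstream of the gene. Its GNC peak scored 88.52 and 78.39 and was centred 380 bp from the TSS, and its CGA1 peak scored 53.1 and 61.06 and was centred 1519 bp from the TSS, nearer to AT3G22845. When only peaks nearest to the TSS of the gene were used, 5 of the 34 genes had GNC (14.7%, interval 6.45% to 30.1%), against 13.8% of all genes. For CGA1 it was 2 (5.88%, interval 1.63% to 19.1%), against 5.86%. The GLK1 and GLK2 genes, whose products activate antenna genes, had no peak of either factor in any list.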

How the data were processed

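ChIP-seq was measured in IP and INPUT libraries of the myc-GNC and myc-CGA1 lines, 2 replicates each. Per the labels and the methods of the study, trimmed reads were aligned to TAIR10 (Bowtie2 2.2.6), those with a further match were discarded, and MACS peaks were given for each replicate. The deposited lists give intervals and a score, which the authors' peak caller derived from the p-value of IP against INPUT, with no further normalization. The lists give no library depth.

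Peaks were compared with the TAIR10.1 annotation of RefSeq, whose 5 nuclear chromosomes are those of TAIR10, in Python 3.11.15 with pandas 2.3.3, numpy 2.4.6 and scipy 1.17.1, and sequences were read from the RefSeq genome. Each share is given with that of all nuclear protein-coding genes and a 95% Wilson interval, and no test was made because the lists of a line counted as 1 sample. The overlap and word counts were tested on simulated data. The members and gene lists were chosen with earlier results of these data known. The genes named with their peaks are those with a peak in at least 1 list and, of the other photosynthesis genes, those with a peak in both. Some genes without a peak are named too, among them GLK1, GLK2 and genes of pairs picked after their values were seen. Alternatives changed the window, the peak placement, the score minimum (100), the lists needed, the word length and the motif window. The description fields of the CGA1 INPUT samples name the GNC lists, and the titles were followed.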

Additional observations from a re-analysis of the deposited data

Results flagged for a closer look

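Both GNC lists held 1 peak on the chloroplast genome, which was outside the comparisons of nuclear genes. Its score was 147.34 in replicate 1 and 344.93 in replicate 2, both above every score at the 44 nuclear genes, and the CGA1 lists had no peak there. The peak (110292 to 114390 on the chloroplast genome, 4099 bp) overlapped ycf1, ndhF, rpl32 and a trnL gene. None of the 20 chloroplast psa and psb genes, which encode the other photosystem subunits, lay in it, and the nearest, psaC, was 2927 bp away.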

How the results depend on the processing

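The number of the 44 genes with a GNC peak was 11. It was 11 (25.0%) without replicate 1, against 26.9% of all genes, and 14 (31.8%) without replicate 2, against 27.0%. It was 10 by peak centres (22.7%, against 21.5% of all genes) and by the nearest TSS (22.7% against 13.8%). It was also 10 by overlap of the peaks of both lists (22.7% against 22.7%) and in unique windows (28.6% against 23.9%). With either list it was 14 (31.8% against 30.9%). It was 4 (9.09%) in the promoter window (1 kb upstream to 100 bp downstream of the TSS), against 5.33%. In the 2 kb upstream it was 4 (9.09%), against 10.6%, and with a score of at least 100 it was 0, against 2.61%. For CGA1 the count was 3. It was 4 (9.09%) when either replicate was left out, against 12.3% and 12.7% of all genes. With either list it was 5 (11.4%), against 15.0%, and with a score of at least 100 it was 0, against 0.762%. The count for both factors was 1, and 0 in the promoter window, in the 2 kb upstream and with a score of at least 100. All genes had 0.135%, 0.547% and 0.0364% in the same order. The counts by complex that follow are to be read beside the shares of all genes given above. For GNC by complex, LHCA fell to 0 in the promoter window, upstream and by score, and to 1 in unique windows. LHCB fell to 1 in the promoter window and upstream and to 0 by score, was 5 with either list, and ran from 3 to 5 when a replicate was left out. PSB fell to 1 in the promoter window and upstream, and PSA and PSB to 0 by score. For CGA1 by complex, LHCB was 0 by score and by the nearest TSS, PSA was 1 in the promoter window and upstream and 0 by score, and PSB was 2 with either list and 1 when a replicate was left out (1 to 1).

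Of the other photosynthesis genes, GNC had 3 in the promoter window, 4 upstream and 0 by score, and CGA1 had 1 in the promoter window, 0 by score, and 2 by the nearest TSS and in unique windows. Of all protein-coding genes, GNC had 1463 in the promoter window, 2918 upstream, 717 by score and 3785 by the nearest TSS. CGA1 had 617, 1269, 209 and 1609 in the same order, and 4122 with either list. Both factors had 37, 150, 10 and 295, then 1434 with either list, and 1009 to 1071 when a replicate was left out. With words of 100 bases, 1 of the 44 windows was under 95% unique. In 500 bases around the centre in place of 300, 10 of 20 motif counts moved. In the 10 GNC regions, GATC rose from 5 to 9, the E-box from 6 to 10 and GAGAGA from 2 to 5. Of all GNC regions, 79.9%, 84.1% and 38.7% held these words in 500 bases. In the 3 CGA1 regions, GATC rose from 1 to 2 and the E-box from 0 to 2, against 79.0% and 83.6% of all CGA1 regions. The I-box, G-box, CCA1 word, CCAAT and GAGAGA rose from 0 to 1, against 25.8%, 6.67%, 8.39%, 67.6% and 40.2%. The alternatives that required overlapping peaks of both lists or unique windows were chosen after seeing the data. The cause of these changes was not tested beyond the smaller windows and peak sets that the alternatives use by construction. No paired analysis was possible because the lists hold peaks called for each replicate and no values that a fit with a replicate block could use.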
